A study of Mus musculus with 45 samples.

Results

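Fatty acid oxidation and ketogenesis were followed in the mouse liver through 43 genes taken by name from a list of the pathway's enzymes and of known targets of its main regulator, of 39179 genes in the count files. The list held 6 genes of fatty acid activation and the carnitine shuttle, 15 of mitochondrial beta-oxidation, 8 of peroxisomal beta-oxidation, 4 acyl-CoA thioesterases, 4 omega-hydroxylases, 1 ketone body dehydrogenase and 5 other targets or regulators. All 43 were among the 17464 genes with more than 4 reads in at least 1 mouse, and the rule took them by name, although the list was drawn up with earlier results of these data known. Liver RNA came from 45 female C57BL/6 mice, 5 in each of 9 groups, that received by gavage either sesame oil vehicle or TCDD (2,3,7,8-tetrachlorodibenzo-p-dioxin) at 1 of 8 doses, an agonist of the aryl hydrocarbon receptor. The 4 lower doses were 0.3, 0.1, 0.03 and 0.01 µg/kg and the 4 higher ones were 30, 10, 3 and 1 µg/kg. By the study's methods doses were given every 4 days, starting on postnatal day 28, and livers were taken on day 28 of the study. The labels describe the mice of all groups, vehicle included, as ovariectomized, which the study's methods do not mention, and call the gavage daily as well as once in 4 days.

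Fatty acids are activated to acyl-CoA, carried into mitochondria as carnitine esters and shortened there by rounds of beta-oxidation, and in the liver the acetyl-CoA formed can be turned into ketone bodies for export. Peroxisomes shorten very long and branched chains, and cytochrome P450 enzymes of the Cyp4a family hydroxylate the omega end. Many of these genes are direct targets of the nuclear receptor PPARα, which binds a repeated DNA motif, and the aryl hydrocarbon receptor binds a short DNA core element.

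Between 11767284 and 56509899 reads per mouse fell on genes, and the median was 17225047. Values are CPM, that is read counts divided by the library size of each mouse and put on a common scale, with library sizes adjusted by the trimmed mean of M-values (TMM). Cyp1a1, a standard target of the aryl hydrocarbon receptor, rose from 7.498 ± 6.32 CPM in vehicle mice to 7627 ± 1186 CPM at 30 µg/kg (SD, n = 5). Mouse 5 of the 0.01 µg/kg group stood apart from the other 4 in Cyp1a1 (4.54, 1.91, 1.18, 1.33 and 69.7 CPM), and results at that dose are given with and without it. Albumin, which marks hepatocytes, had 90977 to 122700.0 CPM in vehicle and 92818 to 141270.0 CPM at 30 µg/kg, but 5 of the 6 hepatocyte markers were called lower at 30 µg/kg, with a list median log2 fold change of -0.74 and a summed level from 113310 to 149070 CPM in vehicle and from 104170 to 155070 CPM at 30 µg/kg. Over the same comparison, 4 of 6 leukocyte markers were called higher (summed 7.76 to 14.7 and 15.99 to 35.9 CPM), as were 1 of 6 macrophage (131 to 204 and 103 to 323 CPM), 2 of 5 stellate (85.3 to 105 and 204 to 326 CPM), 3 of 4 endothelial (110.3 to 143 and 133 to 211 CPM) and 0 of 4 cholangiocyte markers, while the adipocyte markers Plin1 and Lep had under 5 reads in every mouse. Over all tested genes, 14.1% were called lower and 15.5% higher at 30 µg/kg, and the 1 of 6 macrophage markers lay near that share. In whole liver, a change in the number of hepatocytes and a change in a marker's RNA within each hepatocyte cannot be told apart. The part of cell composition in the results was not tested.

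Members of the pathway were called lower with TCDD from 1 µg/kg upward, and few were called higher. At 30 µg/kg, 17 of the 43 members were lower and 2 were higher than in vehicle at an adjusted p under 0.05, while 14.1% of all tested genes were lower and 15.5% were higher. The median log2 fold change of the members was -0.19, against 0.02 over all genes. Cyp4a14, Acaa1b, Crat and Vnn1 were lower and Cyp4a31 was higher by at least 2-fold, which gives 4 members where 3.42% of all genes were lower and 1 member where 8.03% were higher. The 5 mice at 30 µg/kg were all below the 5 vehicle mice for 12 members and all above for 2, where 9.57% and 10.3% of all genes separated in these directions. Scaling by library totals alone raised the median log2 fold change of all genes by 0.21 at this dose. The split then became 10 lower and 8 higher members, beside 7% of all genes lower and 28.6% higher. The member median was then 0.02 against 0.23 over all genes. A change of scaling moves all genes by nearly the same amount, so the unchanged gap of 0.21 between these medians is no separate check. 

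**Figure D1:**
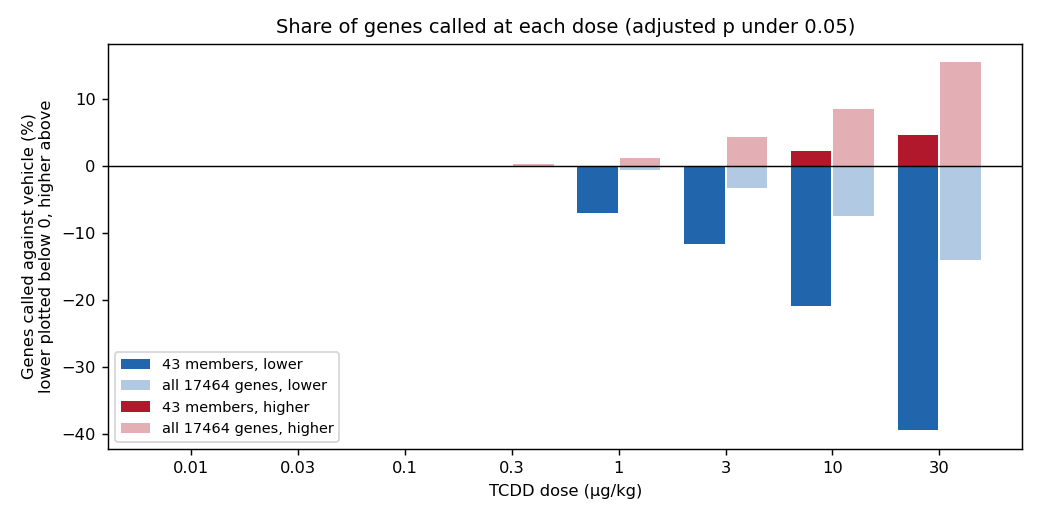
Percentage of genes called against vehicle (y axis, adjusted p under 0.05, lower below 0 and higher above 0) at each TCDD dose in µg/kg (x axis), dark bars for the 43 members and pale bars for all 17464 genes tested. Lower calls among members go from 3 genes at 1 µg/kg to 17 at 30 µg/kg.

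No member was called at the 4 lowest doses by edgeR or by DESeq2. Of all genes, DESeq2 called 0.0573% lower and 0.137% higher at 0.01 µg/kg, and 0.195% and 0.223% at 0.03 µg/kg. Its shares were 0% and 0.0286% at 0.1 µg/kg, and 0.281% and 0.527% at 0.3 µg/kg. The shares called that follow are those of edgeR. At 0.01 µg/kg neither direction held any edgeR call over all genes (0%). There 37 of 43 members had a log2 fold change below 0, with a median of -0.17, where 46.5% of all genes lay below 0 and their median was 0.02. An unadjusted p under 0.05 was reached by 10 members with edgeR and 11 with DESeq2, beside 10.1% and 9.69% of all genes. Without the mouse that stood apart, 36 members lay below 0, the median was -0.17 and 6 had an unadjusted p under 0.05, against 49.5% of all genes below 0 and 10.4% at that p. At 0.03 µg/kg, where 0.0229% of all genes were lower and 0.0344% higher, 3 members had an unadjusted p under 0.05 (5 with DESeq2), beside 11.7% of all genes (11.4%). None did at 0.1 µg/kg with edgeR and 1 did with DESeq2, beside 5.15% and 4.75% of all genes, with 0% of all genes called lower and 0.0229% higher. At 0.3 µg/kg, where 0.143% were lower and 0.321% higher, 6 members did so, and 8 with DESeq2, beside 10.5% and 10.3% of all genes. Members below 0 numbered 31, 33 and 30 at 0.03, 0.1 and 0.3 µg/kg in turn, beside 48.4%, 45.1% and 46.9% of all genes. All doses were compared with the same 5 vehicle mice.

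The first calls came at 1 µg/kg, where Cyp4a14, Acaa1b and Crat were lower, that is 3 of 43 members against 0.515% of all genes lower and 1.24% higher. Acaa2 and Vnn1 joined at 3 µg/kg, making 5 members lower beside 3.2% of all genes lower and 4.34% higher. These added calls were weak. Acaa2 lost its call at 3 µg/kg in 7 of 10 fits that each left out 1 mouse (vehicle mouse 1, 2, 3 or 5, or treated mouse 1, 3 or 5, adjusted p up to 0.119), and Vnn1 in 6 of 10 (vehicle mouse 2, 3 or 5, or treated mouse 1, 3 or 5, adjusted p up to 0.0896). At 10 µg/kg, 9 members were lower and 1 was higher, with 7.47% of all genes lower and 8.47% higher. Cpt2, Acadl, Etfdh and Ehhadh were the added lower members and Acox2 was the higher one. The Acox2 call at 10 µg/kg was lost without vehicle mouse 3 or treated mouse 1 (adjusted p of at least 0.0592), the Etfdh call without vehicle mouse 2 (0.101), the Cpt2 call without vehicle mouse 5 or treated mouse 1, 3 or 4 (up to 0.0667), and the Vnn1 call without vehicle mouse 2 or 5 or treated mouse 1 or 3 (up to 0.0778).

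**Figure D2:**
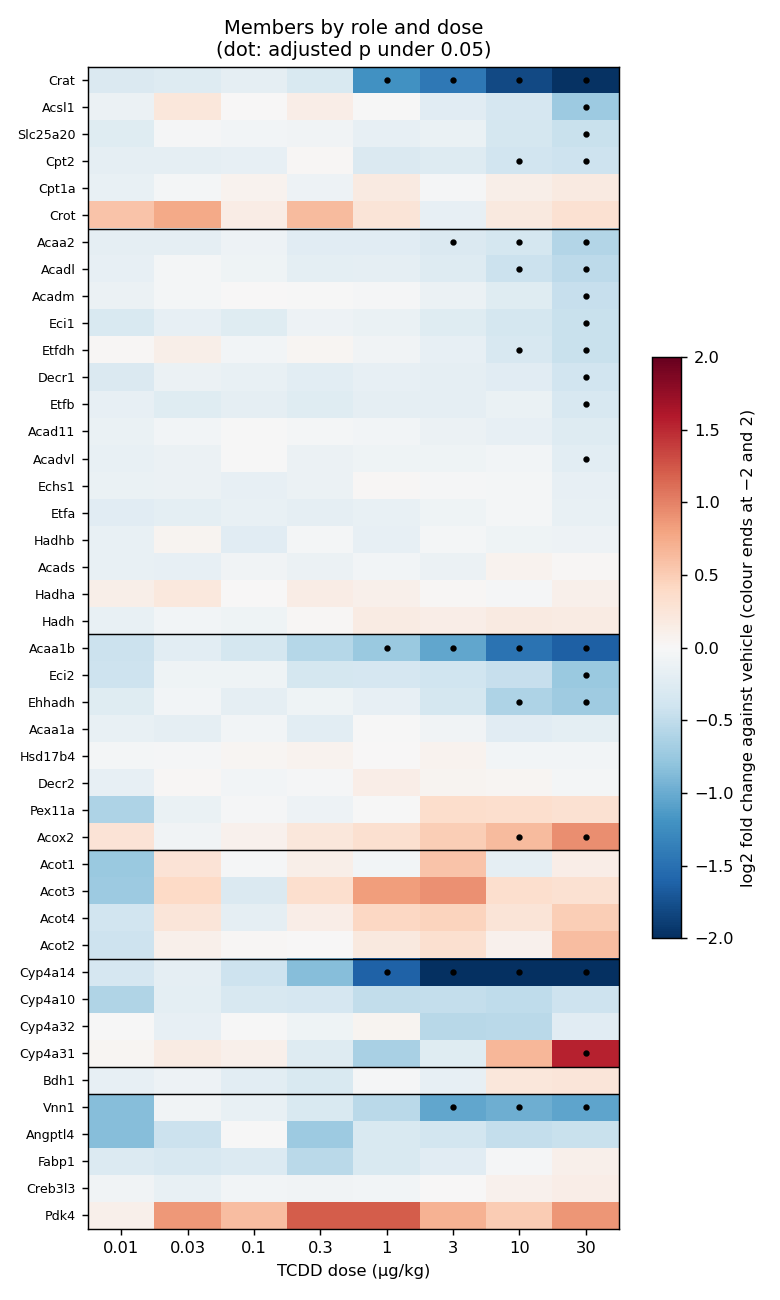
log2 fold change against vehicle (colour, blue lower and red higher, ending at -2 and 2) of the 43 members (rows, grouped by role between black lines) at the 8 TCDD doses in µg/kg (columns), with a dot where the adjusted p was under 0.05. Cyp4a14, Acaa1b and Crat carry dots from 1 µg/kg, and 8 further members are called lower at 30 µg/kg alone.

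A linear contrast over the order of the 9 groups, which uses all 45 mice, called 14 members lower and 7 higher, beside 20.3% of all genes lower and 21% higher. The higher members were Acox2, Cyp4a31, Hadh, Pex11a, Acot2, Acot4 and Bdh1, of which the last 5 were not called at 30 µg/kg. Without the 30 µg/kg group, 10 members were lower and 3 were higher (Acox2, Hadh and Pex11a, all among the 7), beside 12.1% of all genes lower and 12.3% higher. Between adjacent doses no member passed the test. From 1 to 3 µg/kg no member reached even an unadjusted p under 0.05 with edgeR, beside 7.11% of all genes. Of all genes, 0.0229% were called lower and 0.155% higher in that step. From 3 to 10 µg/kg 5 members reached an unadjusted p under 0.05, beside 9.68% of all genes, with 0.235% called lower and 0.55% higher. From 10 to 30 µg/kg 6 members reached it, beside 7.56% of all genes, with 0.183% called lower and 0.429% higher. The steps were not run with DESeq2.

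**Figure D3:**
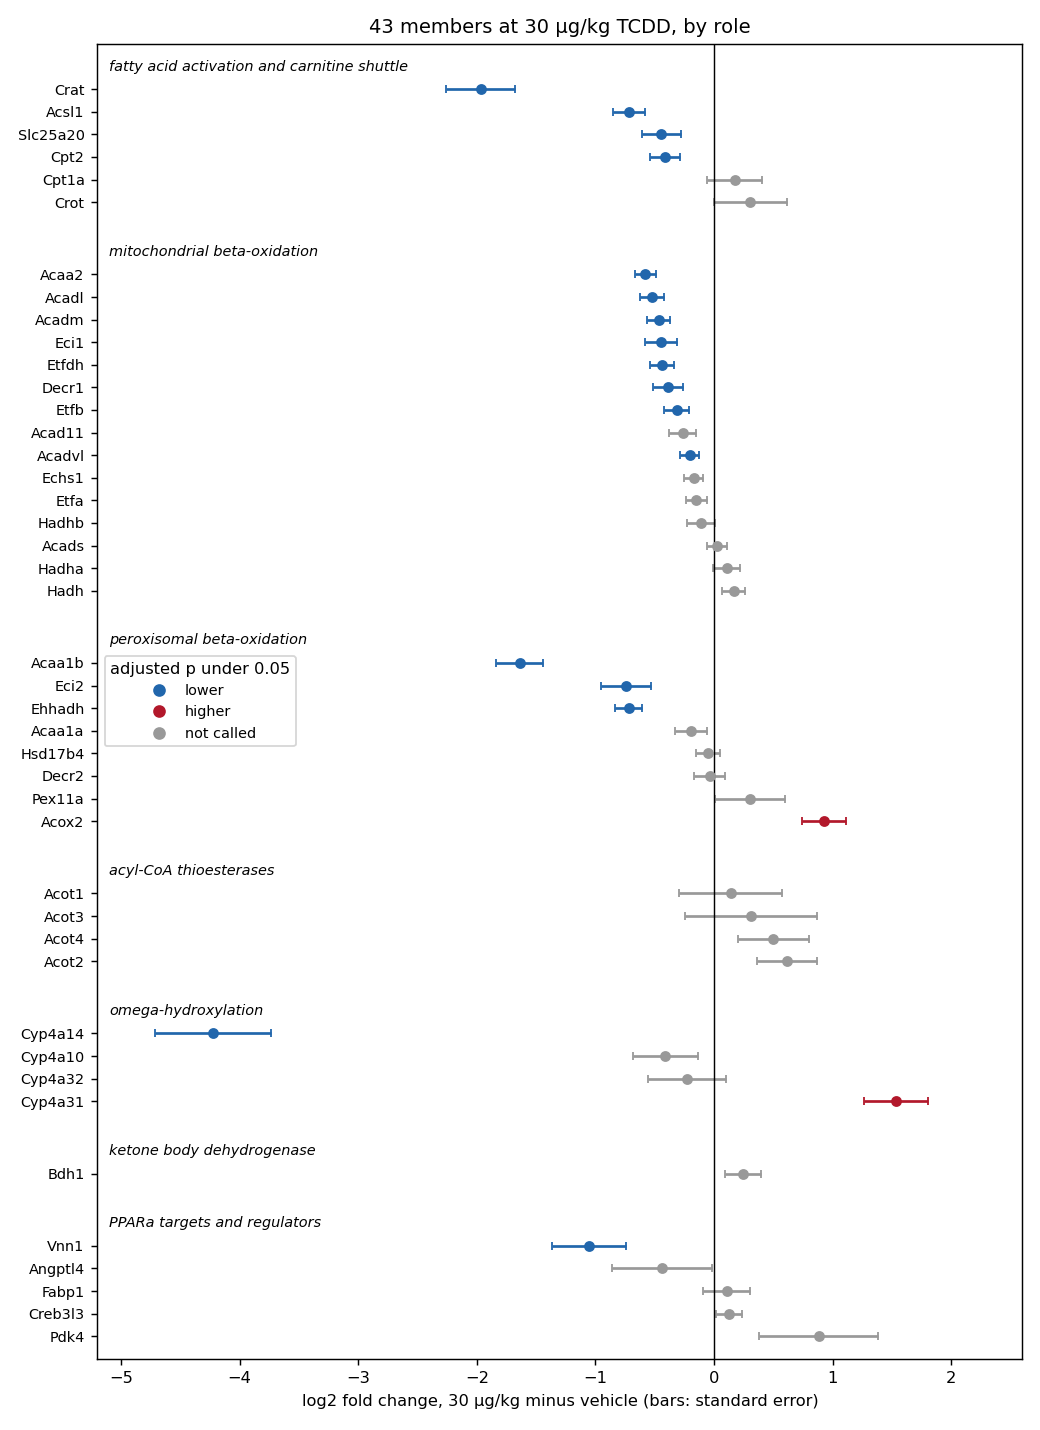
log2 fold change at 30 µg/kg TCDD against vehicle (x axis, points with standard error bars) for each of the 43 members (y axis, grouped by role), coloured by call at an adjusted p under 0.05. Cyp4a14 lies lowest at -4.23 and Cyp4a31 highest at 1.53.

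The omega-hydroxylases held both the deepest fall and the largest rise of the list. Their 4 genes lie next to each other on chromosome 4 (GRCm38), with Cyp4a14 at chr4:115486200-115496142 on the minus strand, followed on the plus strand by Cyp4a10 at chr4:115518264-115533649, Cyp4a31 at chr4:115563649-115579015 and Cyp4a32 at chr4:115600969-115621602. Cyp4a14 was present at 1112, 968, 987, 822 and 993 CPM in the vehicle mice and at 89.8, 48.8, 57.9, 33.5 and 30.1 CPM at 30 µg/kg. The highest treated mouse was thus far below the lowest vehicle mouse. The log2 fold change was -4.23 ± 0.49 (SE), an 18.7-fold fall (adjusted p = 4.95e-09). Group means were 776 and 864 CPM at 0.01 and 0.03 µg/kg. They were 735, 543, 318, 222 and 133 CPM at the doses of 0.1, 0.3, 1, 3 and 10 µg/kg in turn. No step between adjacent doses from 1 µg/kg upward was called, and the steps below 1 µg/kg were not tested. At the lower doses the mice varied widely, from 476 to 1712 CPM at 0.03 µg/kg and from 56.9 to 404 CPM at 3 µg/kg.

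Cyp4a31 ran the other way. It was low in vehicle mice, at 12.7, 9.67, 16.4, 9.22 and 11.5 CPM, and reached 29.2, 56.95, 35.7, 23.1 and 27.2 CPM at 30 µg/kg, with every treated mouse above every vehicle mouse. Its log2 fold change was 1.53 ± 0.27 (adjusted p = 2.09e-05). In the main fit it was called at 30 µg/kg alone, and the group mean was 7.500, 10.1 and 18.9 CPM at 1, 3 and 10 µg/kg in turn. At 10 µg/kg all 5 mice were above the vehicle mice, but the gene was not called there (log2 fold change 0.67 ± 0.27, adjusted p = 0.0823). It was called higher at 10 µg/kg with only the groups compared and with library totals alone, beside 10.5% and 14.4% of all genes.

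Cyp4a10, the more abundant of the other 2 omega-hydroxylases, had 478, 473, 571, 326 and 535 CPM in vehicle and 328, 391, 474, 272 and 326 CPM at 30 µg/kg, and these ranges overlapped (log2 fold change -0.41 ± 0.27, adjusted p = 0.27). Cyp4a32 had 10.5, 17.7, 15.5, 9.96 and 20.5 CPM and 7.03, 19.6, 14.7, 13.7 and 8.34 CPM, which also overlapped (adjusted p = 0.643). Within each mouse the reads of Cyp4a14 over those of Cyp4a10, a ratio that no scaling alters and that was chosen after these values were seen, lay between 1.73 and 2.52 in vehicle mice, between 0.539 and 1.396 at 1 µg/kg and between 0.0924 and 0.274 at 30 µg/kg. The ratio of Cyp4a31 to Cyp4a10 went from between 0.0204 and 0.0287 in vehicle to between 0.0754 and 0.146 at 30 µg/kg. Cyp4a10, Cyp4a31 and Cyp4a32 are near copies. Of the 50-base windows in its annotated transcripts, 43.8% in Cyp4a32, 29.8% in Cyp4a10 and 20.6% in Cyp4a31 occur unchanged in another gene's transcripts, so the split of reads between those 3 genes is uncertain. For Cyp4a14 the share was 0.235%, none of it with these 3.

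**Figure D4:**
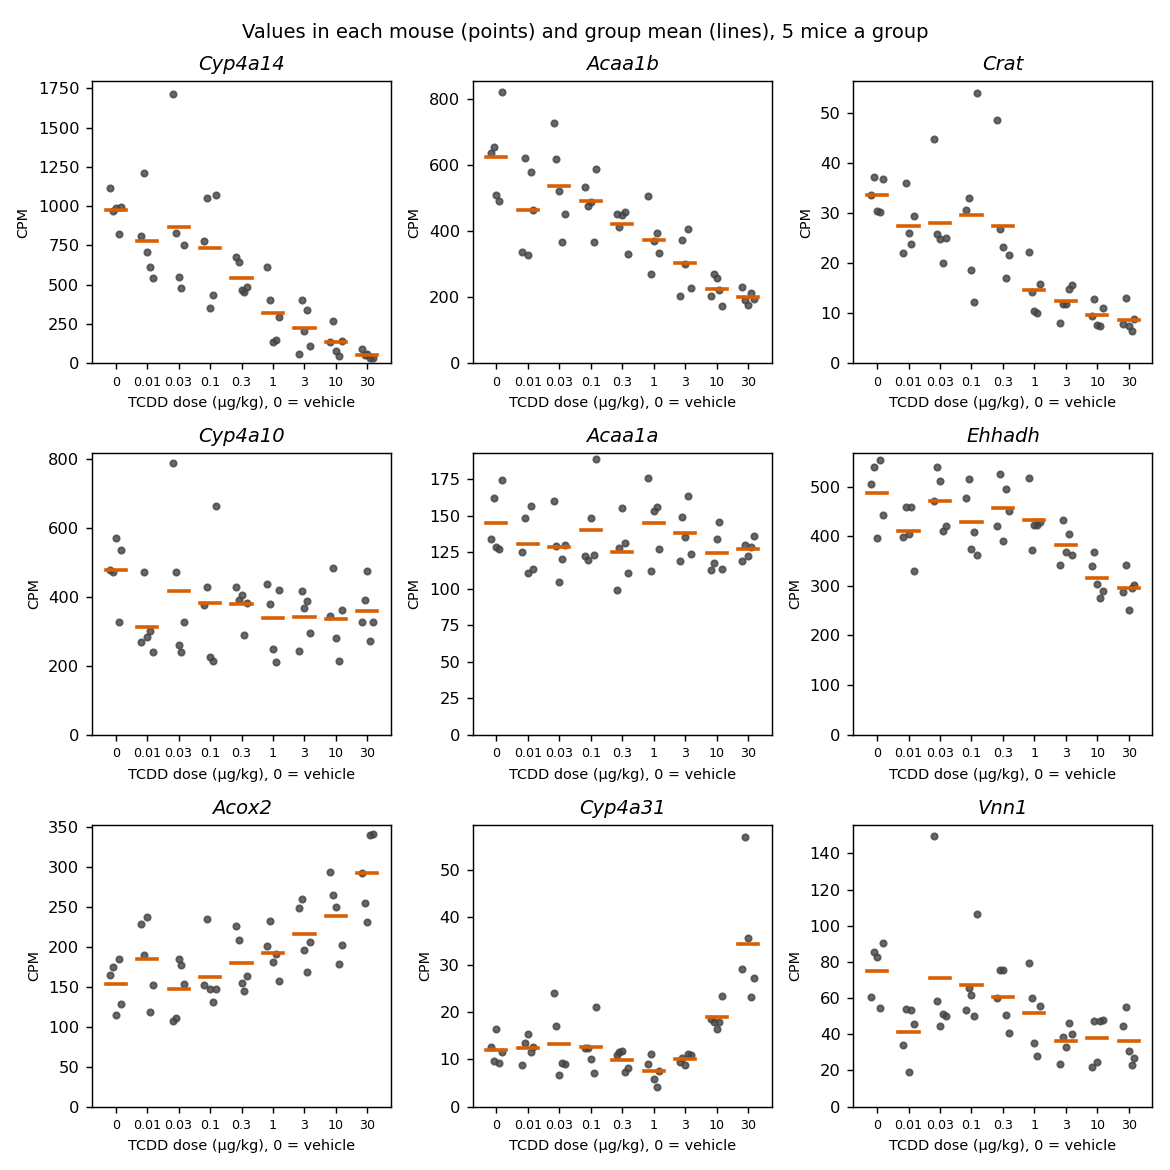
CPM in each mouse (points) and group mean (lines) against TCDD dose in µg/kg, with 0 for vehicle and 5 mice in each group, for 9 members. The means of Cyp4a14, Acaa1b and Crat fall with each dose above 0.1 µg/kg. Cyp4a10 and Acaa1a overlap with vehicle at 30 µg/kg, and Acox2 and Cyp4a31 lie highest at 30 µg/kg.

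Of the 8 members of peroxisomal beta-oxidation, 3 were lower and 1 was higher at 30 µg/kg, where 14.1% of all genes were lower and 15.5% higher. Acaa1b and Acaa1a encode peroxisomal thiolases, which cleave off acetyl-CoA in the last step of each round, and both lie on chromosome 9. The bases before their RefSeq start sites (GRCm38.p6) are shown to set the pair side by side, with those of Ehhadh, which fell, and of Fabp1, which holds the PPARα type of repeat. Each sequence gives the 250 bases before the start, 5′ to 3′ on the gene's own strand, and capitals mark any match on either strand to the direct repeat AGGNCANAGGNCA or to the receptor core GCGTG.
Acaa1a (chr9:119341044-119341293, plus strand): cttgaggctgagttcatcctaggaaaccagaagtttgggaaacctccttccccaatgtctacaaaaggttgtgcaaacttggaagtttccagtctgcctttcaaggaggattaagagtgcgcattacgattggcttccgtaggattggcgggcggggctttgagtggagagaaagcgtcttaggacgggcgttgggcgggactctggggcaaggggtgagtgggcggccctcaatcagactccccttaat
Acaa1b (chr9:119157094-119157343, minus strand): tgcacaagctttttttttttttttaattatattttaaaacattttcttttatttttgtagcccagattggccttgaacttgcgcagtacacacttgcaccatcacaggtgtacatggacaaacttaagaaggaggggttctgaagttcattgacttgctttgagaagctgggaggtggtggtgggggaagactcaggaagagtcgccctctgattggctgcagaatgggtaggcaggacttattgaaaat
Ehhadh (chr16:21787835-21788084, minus strand): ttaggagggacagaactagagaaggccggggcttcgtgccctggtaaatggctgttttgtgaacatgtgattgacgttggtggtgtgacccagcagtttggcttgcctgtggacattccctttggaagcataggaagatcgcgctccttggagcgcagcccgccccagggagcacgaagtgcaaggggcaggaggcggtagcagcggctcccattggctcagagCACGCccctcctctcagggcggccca
Fabp1 (chr6:71199629-71199878, plus strand): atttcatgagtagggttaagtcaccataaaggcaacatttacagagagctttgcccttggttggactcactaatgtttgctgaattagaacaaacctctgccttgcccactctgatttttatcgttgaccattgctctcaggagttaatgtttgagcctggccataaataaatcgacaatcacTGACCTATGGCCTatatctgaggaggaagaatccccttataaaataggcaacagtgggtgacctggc
The 300-base windows searched run 50 bases beyond the start, and 34 of the 43 members had 39 such windows, while Acaa2, Angptl4, Crat, Cyp4a10, Cyp4a14, Cyp4a31, Decr1, Hsd17b4 and Vnn1 had none in the table. The direct repeat was found in 1 member window, that of Fabp1, and in 0.381% of 32851 windows of all genes. The receptor core was found in 16 member windows (41%) of 15 members, and in 32.4% of all windows, and neither motif was present in the windows of Acaa1a or Acaa1b.

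Acaa1b had 639, 656, 510.0, 492 and 823 CPM in vehicle mice and 229.6, 191, 176, 212 and 193 CPM at 30 µg/kg. No treated mouse reached the lowest vehicle mouse, and the log2 fold change was -1.64 ± 0.20 (3.11-fold, adjusted p = 1.33e-08). Its group means were 421, 375, 302 and 225 CPM at the doses of 0.3, 1, 3 and 10 µg/kg in turn. Acaa1a was not called at any dose, with 145 ± 21.4 CPM in vehicle and 127 ± 6.57 CPM at 30 µg/kg, and the interval of its log2 difference ran from -0.46 to 0.07 (95%). The reads of Acaa1b over Acaa1a were 3.86 to 4.76 in vehicle mice, 2.404 to 2.87 at 1 µg/kg and 1.42 to 1.92 at 30 µg/kg. For Acaa1b, 39.6% of the 50-base windows are shared with another gene, mostly Acaa1a.

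Ehhadh, the bifunctional enzyme that hydrates and then oxidizes straight-chain intermediates, had 505, 538, 396, 553 and 442 CPM in vehicle and 288, 343, 252, 295 and 302 CPM at 30 µg/kg, without overlap (log2 fold change -0.72 ± 0.12, adjusted p = 4.53e-06). Eci2, an isomerase for unsaturated chains, had 176, 252, 275, 173 and 237 CPM and 119, 142, 148, 147 and 110.1 CPM, also without overlap (log2 fold change -0.74 ± 0.21, adjusted p = 0.00657). Acox2, an oxidase that acts on branched chains and bile acid intermediates, was the one that rose. It had 165, 175, 115, 185 and 128 CPM in vehicle and 293, 256, 231, 340.2 and 342 CPM at 30 µg/kg, where every mouse lay above the vehicle mice (log2 fold change 0.93 ± 0.19, 1.903-fold, adjusted p = 1.48e-04). The reads of Acox2 over those of Ehhadh, compared after these values were seen, went from 0.289 to 0.334 in vehicle mice to between 0.746 and 1.15 at 30 µg/kg. Hsd17b4, the second bifunctional enzyme, which handles branched chains, differed by -0.05 ± 0.10 on the log2 scale (95% interval -0.25 to 0.14), Decr2 by -0.04 ± 0.13 and Pex11a, a peroxisome membrane protein of organelle division, by 0.31 ± 0.30, and none of these 3 was called.

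Of the 6 genes of activation and the carnitine shuttle, 4 were lower and none was higher at 30 µg/kg, beside 14.1% and 15.5% of all genes. Crat, the carnitine acetyltransferase that exchanges acetyl groups between CoA and carnitine, had 33.5, 37.2, 30.4, 30.1 and 36.8 CPM in vehicle and 7.71, 12.9, 7.32, 6.35 and 8.74 CPM at 30 µg/kg. Vehicle and treated mice were widely separated, with a log2 fold change of -1.97 ± 0.29 (3.92-fold, adjusted p = 8.06e-07). Its dose profile had a step between 0.3 µg/kg, with a mean of 27.4 CPM and a range from 17.1 to 48.5, and 1 µg/kg, with a mean of 14.5 and a range from 10.1 to 22.1, though that step itself was not tested. Acsl1, the main long-chain acyl-CoA synthetase of the liver, had 807, 915, 989.5, 933 and 825 CPM in vehicle and 455, 702, 572, 531 and 455 CPM at 30 µg/kg, without overlap (log2 fold change -0.72 ± 0.14, adjusted p = 7.26e-05). Its mean was 1045 CPM at 0.03 µg/kg and 982 at 0.3 µg/kg, and it was called at 30 µg/kg alone. 

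The inner steps of the shuttle fell by less. Cpt2, which regenerates acyl-CoA inside the mitochondrion, had 119.9, 125, 124, 123 and 139 CPM and 85.97, 97.5, 89.5, 87.97 and 112 CPM (log2 fold change -0.41 ± 0.12, adjusted p = 0.00977). Slc25a20, the translocase for carnitine esters, had 127, 149, 166, 118 and 159 CPM and 89.5, 115, 122, 107 and 95.7 CPM, with overlap (log2 fold change -0.44 ± 0.16, adjusted p = 0.034), and its call was lost without vehicle mouse 2, 3 or 5 or treated mouse 1 or 5 (adjusted p from 0.0667 to 0.0896). With library totals alone neither Cpt2 (log2 fold change -0.20, adjusted p = 0.183) nor Slc25a20 (-0.23, 0.248) was called. Cpt1a, the outer membrane transferase at which entry of fatty acids into the mitochondrion is controlled, was not called at any dose. It had 301, 559, 582, 474 and 457 CPM in vehicle and 414, 717, 568, 457 and 524 CPM at 30 µg/kg, and the interval of its log2 difference ran from -0.28 to 0.63 (95%). Crot, the peroxisomal carnitine octanoyltransferase, had 514 ± 86.7 CPM and 636 ± 256 CPM (SD, n = 5) and was not called either.

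Mitochondrial beta-oxidation held 8 lower members of 15 and no higher one at 30 µg/kg (14.1% and 15.5% of all genes), all by less than 2-fold, with a median log2 fold change of -0.27 against 0.02 over all genes. Acaa2, the mitochondrial thiolase, had 863, 868, 934, 807 and 959 CPM in vehicle and 593, 596, 594, 630.4 and 552 CPM at 30 µg/kg, clearly apart (log2 fold change -0.58 ± 0.09, adjusted p = 2.79e-06). Acadl, the long-chain acyl-CoA dehydrogenase, had 307, 349, 368, 314 and 327 CPM and 240.0, 230.3, 232, 229 and 228 CPM, and its treated mice hardly varied (log2 fold change -0.52 ± 0.10, adjusted p = 9.16e-05). Acadm, its medium-chain counterpart, had 279.6, 328, 303, 288 and 295 CPM and 234, 241, 200.4, 217 and 188 CPM, also without overlap (log2 fold change -0.47 ± 0.10, adjusted p = 2.44e-04). Etfdh passes the electrons of these dehydrogenases to the respiratory chain. It had 314, 353, 287, 314 and 266 CPM in vehicle and 239.9, 221, 207, 254 and 209 CPM at 30 µg/kg (log2 fold change -0.44 ± 0.10, adjusted p = 9.39e-04), and it was not called with library totals alone (-0.23, adjusted p = 0.0886).

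The other 4 lower members of the mitochondrial list were Eci1, Decr1, Etfb and Acadvl, with log2 fold changes between -0.45 and -0.21. All but Eci1 depended on single mice. The Decr1 call was lost without vehicle mouse 2 or 3 or treated mouse 5, the Etfb call without vehicle mouse 5 or treated mouse 1 or 5, and the Acadvl call without vehicle mouse 1, 2 or 3 or treated mouse 1, 3 or 5, with adjusted p up to 0.0875, 0.109 and 0.146. Etfb also shares 44.8% and Acadvl 26.9% of its 50-base windows with other annotated genes. With library totals alone the Eci1, Decr1, Etfb and Acadvl calls were all lost. The 7 members not called were Acads, Acad11, Hadha, Hadhb, Echs1, Hadh and Etfa. Acads, the short-chain dehydrogenase, was the steadiest in vehicle mice, with 143 ± 2.32 CPM (SD, n = 5), and had 145 ± 5.37 CPM at 30 µg/kg, a log2 difference with a 95% interval from -0.14 to 0.19. Hadha and Hadhb form the trifunctional protein of the inner membrane and differed by 0.11 ± 0.12 and -0.11 ± 0.12 on the log2 scale. Hadhb shares 19.7% of its 50-base windows with other annotated genes, mostly Gm13910. With library totals alone, where 28.6% of all genes were higher, Acads, Hadha and Hadh were 3 of 15 called higher. Hadh, the short-chain hydroxyacyl-CoA dehydrogenase, rose with dose order (adjusted p = 5.04e-04) from a mean of 399 CPM in vehicle to 448 CPM at 30 µg/kg.

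None of the 4 acyl-CoA thioesterases, which release free fatty acids from acyl-CoA, was called at any dose in the main fit. At 30 µg/kg 14.1% of all genes were lower and 15.5% higher. All 4 log2 fold changes at 30 µg/kg were above 0, where 48.3% of all genes lay below 0. Acot2, the mitochondrial form, had 4.17, 5.53, 6.78, 4.39 and 5.81 CPM in vehicle and 7.48, 11.6, 7.497, 5.91 and 8.495 CPM at 30 µg/kg (log2 fold change 0.61 ± 0.25, adjusted p = 0.0641). It passed the threshold under several other settings, among them library totals alone (adjusted p = 0.00807) and a fit of the 10 mice compared (0.0202). Acot4 had 57.7, 83.1, 96.02, 71.9 and 107 CPM and 115, 134, 106, 118 and 115 CPM (adjusted p = 0.217), and 1 vehicle mouse lay just above the lowest treated mouse. Acot3, like Acot4 a peroxisomal form, had 62.5, 126, 154, 114 and 176 CPM and 147, 127, 175, 158 and 178 CPM. Acot1, the cytosolic form, had 12.7, 15.1, 24.6, 7.92 and 20.3 CPM and 15.5, 20.8, 22.1, 13.3 and 17.2 CPM, and 27.7% of the 50-base windows of Acot2 recur in other genes, mostly Acot1. Both Acot2 and Acot4 rose with dose order (adjusted p = 0.00761 and 0.0138), beside 21% of all genes higher. At 3 µg/kg Acot3 was called higher in the fit of only the groups compared, beside 4.79% of all genes. Acot3 and Acot4 were called higher there with the clock covariate described below, beside 4.02% of all genes.

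Bdh1, which interconverts the ketone bodies acetoacetate and beta-hydroxybutyrate, had 279.8, 303, 348, 249 and 269 CPM in vehicle and 350.1, 422, 344, 253 and 345 CPM at 30 µg/kg, with overlap (log2 fold change 0.24 ± 0.15, adjusted p = 0.233). It rose with dose order (adjusted p = 0.0278) and was called higher at 30 µg/kg with library totals alone (adjusted p = 0.0205). Oxct1, the transferase with which tissues other than hepatocytes use ketone bodies, rose from 4.39, 3.31, 3.698, 4.08 and 4.296 CPM to 8.52, 12.5, 10.5, 6.96 and 11.8 CPM (log2 fold change 1.34 ± 0.21, adjusted p = 3.68e-06). The leukocyte, stellate and endothelial markers moved up in the same mice, and their part in the Oxct1 result was not tested.

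Among the remaining 5 targets and regulators, Vnn1 alone was called. That is 1 lower and none higher at 30 µg/kg, where 14.1% of all genes were lower and 15.5% higher. Vnn1, a pantetheinase that releases the CoA precursor pantothenate, had 60.6, 85.4, 82.95, 54.3 and 90.3 CPM in vehicle and 44.8, 54.9, 30.6, 22.9 and 27.01 CPM at 30 µg/kg. One treated mouse, at 54.9 CPM, lay just inside the vehicle range (log2 fold change -1.05 ± 0.31, adjusted p = 0.00897). Fabp1, the cytosolic fatty acid binding protein, had by far the highest level of the list per kilobase of exon, at 8772 ± 1932 CPM per kilobase in vehicle mice (SD, n = 5), followed by Acaa2 at 585 ± 39.99 and Cyp4a14 at 375 ± 39.7. It had 5596, 5071, 5932, 3238 and 4416 CPM in vehicle and 4479.5, 6582, 6367, 4182 and 4478 CPM at 30 µg/kg and was not called, with a 95% interval of the log2 difference from -0.28 to 0.49. Creb3l3, a hepatic transcription factor of the fasting response, had 215, 288, 266, 230.5 and 256 CPM and 248, 306, 269, 270.5 and 279 CPM, with overlap (adjusted p = 0.405), and was among the 28.6% of genes called higher with library totals alone (adjusted p = 0.00817). Angptl4, a secreted inhibitor of lipoprotein lipase, had 56.2, 95.1, 93.9, 48.6 and 127 CPM and 26.9, 88.1, 72.5, 60.8 and 62.3 CPM, which overlapped widely (adjusted p = 0.469).

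Pdk4, a kinase that shuts off pyruvate dehydrogenase and so spares glucose when fat is burned, had 3.89, 7.06, 2.897, 3.78 and 8.19 CPM in vehicle and 4.64, 16.8, 6.58, 10.8 and 9.38 CPM at 30 µg/kg (log2 fold change 0.88 ± 0.50, adjusted p = 0.191). Its spread between mice was wide at most doses, from 4.52 to 27.3 CPM at 0.3 µg/kg and from 5.78 to 31.3 CPM at 1 µg/kg. The high mice in those groups were also high in the circadian clock gene Arntl and low in Dbp, which peaks at the opposite time of day. The log2 ratio of Arntl to Dbp lay between -8.396 and -6.76 in vehicle mice, between -6.63 and -3.86 at the highest dose, between -9.73 and -3.79 in the 0.01 µg/kg group and between -7.47 and 3.405 in the 0.3 µg/kg group. The 0.3 µg/kg mouse with the ratio of 3.405 had 27.3 CPM of Pdk4, 30.9 CPM of Acot3 and 251 CPM of Cpt1a. A fit with this ratio as a covariate, added after the values were seen, called 2 members with a positive slope, Pdk4 and Acox2, beside 4.7% of all genes. It called 8 with a negative slope, Cpt1a, Acaa1a, Eci2, Decr2, Acot3, Acot4, Fabp1 and Creb3l3, again beside 4.7% of all genes. Of the 19 calls at 30 µg/kg, 18 were kept with the covariate, Acadvl was lost and Acot2 and Acot4 were called higher (adjusted p = 0.0177 and 0.00414). At 0.01 µg/kg, 36 members lay below 0 with the covariate and the median was -0.15, against 46.8% of all genes and a median of 0.02. When each liver was taken is not given in the labels, and the ratio itself differed between groups, so the part of sampling time in these values was not tested.

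**Figure D5:**
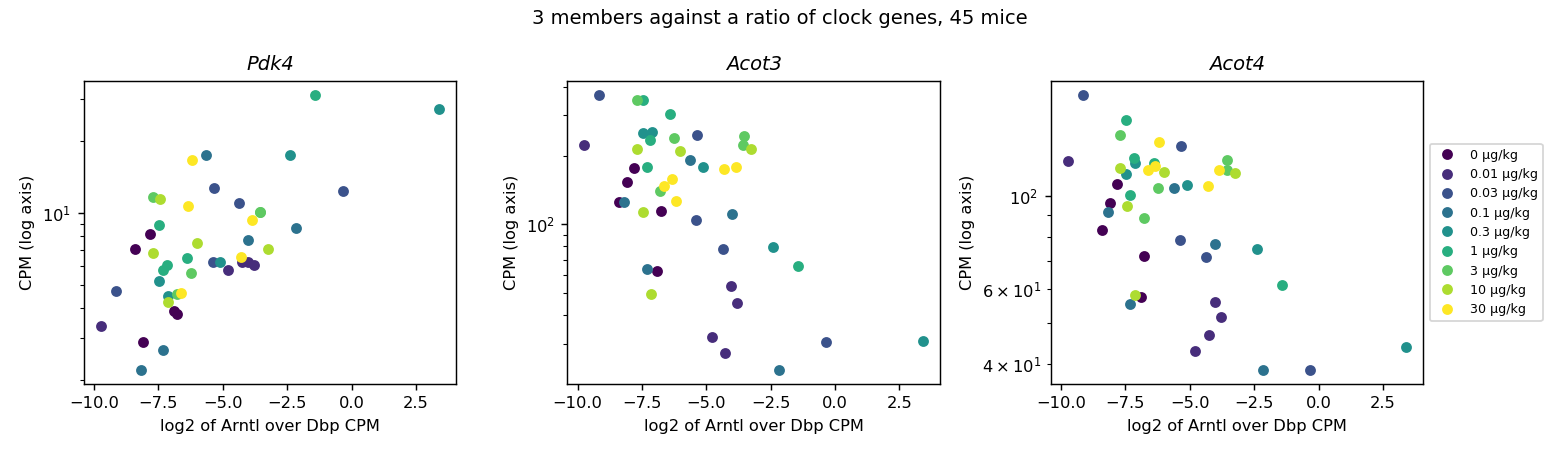
CPM on a log axis (y) of Pdk4, Acot3 and Acot4 against the log2 ratio of Arntl to Dbp CPM (x) in the 45 mice, coloured by TCDD dose in µg/kg with 0 for vehicle. The 5 mice farthest to the right, from the 0.03, 0.1, 0.3 and 1 µg/kg groups, have 8.71 to 31.3 CPM of Pdk4 and 23.01 to 79.5 CPM of Acot3.

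Beyond the 43 members, 60 further genes of the pathway were listed, of which 59 were tested and 1, Tmlhe, had no matching identifier. At 30 µg/kg 28 of them were lower and 5 higher, beside 14.1% and 15.5% of all genes, with a median log2 fold change of -0.26 against 0.02. All 8 acyl-CoA synthetases outside the member list were lower, by log2 fold changes from -0.49 to -1.49. Acsm3, a medium-chain synthetase, had 173, 244, 221, 203 and 179.5 CPM in vehicle and 71.9, 63.5, 71.2, 101 and 55.9 CPM at 30 µg/kg (adjusted p = 1.30e-10), and Acsl3, a long-chain synthetase, had 60.5 ± 9.02 and 21.6 ± 4.199 CPM (adjusted p = 5.73e-09). Eci3, an isomerase related to Eci2, was scarce, at 3.95 ± 1.29 and 1.07 ± 0.372 CPM (log2 fold change -1.86 ± 0.44, adjusted p = 0.00109).

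Ppara, which encodes PPARα itself, was not called at any dose. It had 97.2, 197, 168, 168 and 90.1 CPM in vehicle and 108, 170.0, 117, 114 and 107 CPM at 30 µg/kg, with a 95% interval of the log2 difference from -0.69 to 0.24. The coactivator gene Ppargc1b fell from 6.62 ± 0.573 to 3.12 ± 1.02 CPM (log2 fold change -1.09 ± 0.32, adjusted p = 0.00829). Fgf21, the hepatokine of the fasting response and a known PPARα target, rose. It had 0.0708, 0.509, 0.370, 0.309 and 0.657 CPM in vehicle, from 1 to 13 reads per mouse, and 17.8, 35.5, 16.1, 2.73 and 17.6 CPM at 30 µg/kg (log2 fold change 5.48 ± 0.58, adjusted p = 5.80e-10). Of the other pyruvate dehydrogenase kinases, Pdk1 fell from 182 ± 17.8 to 75.7 ± 10.02 CPM (adjusted p = 1.26e-06), and Pdk3, with at most 20 reads in any mouse of either group, had 0.298 ± 0.188 and 0.947 ± 0.378 CPM (adjusted p = 0.00254). Cyp4f14, an omega-hydroxylase of another family, fell from 249.8 ± 30.00 to 110.3 ± 38.6 CPM (log2 fold change -1.18 ± 0.16, adjusted p = 1.04e-07).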

How the data were processed

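Liver RNA of 45 mice was sequenced as single 50-base reads (Illumina TruSeq RNA kit, strand setting not given in the sources used here). Gene counts were deposited by the authors as raw reads per Ensembl gene and mouse, made with TopHat 1.4.1 on GRCm38 and HTSeq 0.6.1 in its intersection-nonempty mode, with SAMtools 0.1.19 and FastQC 0.11.2 also named in the submitters' processing notes. HTSeq's footer rows, of which reads outside genes made up 9.11 to 17.1% and ambiguous reads 1.34 to 2.07% of uniquely aligned reads, were left out. Groups came from the labels, which do not link single mice to a cage or batch. In the fit of all 45 mice, p-values rest on the spread between the 5 mice within a group, estimated over all 9 groups together.

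Genes with more than 4 reads in any mouse (17464 of 39179) were fitted with edgeR 4.0.16 (R 4.3.3, limma 3.58.1) by the quasi-likelihood test with TMM scaling, all 45 mice in 1 fit, and p-values were adjusted by Benjamini-Hochberg over all genes. Each dose was compared with vehicle, adjacent doses from 1 µg/kg with each other, and a linear contrast was taken over dose order. A gene was called at an adjusted p under 0.05. Standard errors were derived from the F statistic, and 95% intervals are normal approximations. Scripts were tested on simulated data. Alternatives were DESeq2 1.42.0, other scalings and filters, only the groups compared, a fold of at least 2, and leaving out single mice, and 2 were chosen after seeing the data (the clock covariate and leaving out 1 mouse at 0.01 µg/kg). Shared 50-base windows were counted in GENCODE M21 transcripts, and promoter windows are RefSeq's.

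The members and lists were chosen with earlier results of these data known. Values in each mouse are given for the 4 members of each role with the smallest p at 30 µg/kg, plus Cpt1a, Pdk4, Angptl4 and Fabp1. Outside the members, genes called with a fold of at least 2 (at most 10 by p), plus Ppara, are given by mouse or as mean and SD. Some genes are not reported here. Other members were named as values required.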

Additional observations from a re-analysis of the deposited data

Results flagged for a closer look

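Cpt2 in the vehicle group was flagged because 1 mouse, vehicle mouse 5 at 138.8 CPM, stood further from the other 4 (120 to 125 CPM) than Dixon's test at the 95% level allows. It was the only one of 54 such groups (27 named members, vehicle and 30 µg/kg), and chance flags about 1 in 20. The Cpt2 call at 30 µg/kg was kept without that mouse, and the call at 10 µg/kg was lost.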

How the results depend on the processing

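Of 19 member calls at 30 µg/kg, DESeq2 made the same 19 and the DESeq2-type size factors, the filter of 1 read, filterByExpr (which added Acot2) and the fit of only the groups compared (which added Acot2 and Acot4) each kept 18, losing Acadvl. Leaving out single mice kept 15 to 19, and the calls lost were those of Acadvl, Decr1, Etfb and Slc25a20. Scaling by library totals kept 12. It gave 10 lower and 8 higher members at 30 µg/kg (7% and 28.6% of all genes), 6 and 3 at the dose of 10 µg/kg (4.17% and 14.4%), 4 and 1 in the 3 µg/kg group (1.68% and 6.82%), and 9 and 15 with dose order (10.6% and 34.4%), and moved the median log2 fold change at 30 µg/kg to 0.021, while that of all genes rose by 0.21. The fit of only the groups compared called 16 lower and 4 higher at 30 µg/kg (14.9% and 16.2% of all genes), 11 and 2 at 10 µg/kg (9.04% and 10.5%) and 4 and 1 at 3 µg/kg (3.49% and 4.79%). With the clock covariate, chosen after seeing the data, 3 members were lower and 2 higher at 3 µg/kg (3.19% and 4.02% of all genes), and 16 were lower and 4 higher at 30 µg/kg (13.4% and 14.4%). A fold of at least 2 left 4 lower and 1 higher at 30 µg/kg, beside 3.42% and 8.03% of all genes. At 10 µg/kg it left 3 lower and 0 higher, and the share over all genes was not counted there. Without the 30 µg/kg group, 10 members were lower and 3 higher with dose order (12.1% and 12.3%). Leaving out single mice gave 3 to 6 lower members at 3 µg/kg and 0 to 1 higher at 10 µg/kg. The shares over all genes were not counted for these fits. With all mice, 3.2% of all genes were lower at 3 µg/kg and 8.47% were higher at 10 µg/kg. No named gene reversed a called direction under any of these settings. No paired analysis was possible because the labels give no replicate numbers that link the mice of different groups. The cause of these changes was not tested. The intervals beside members that were not called show which changes remain possible.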
